A study of Mus musculus with 12 samples.

Results

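The genes described here encode the metalloproteinases that cut the extracellular matrix and shed proteins from cell surfaces, together with their tissue inhibitors. They were chosen by symbol, as all genes of the Mmp, Adam, Adamts and Timp families, Adamts-like genes included, with a probe set that carried 1 gene symbol. The brightest such probe set stood for the gene. The pattern matched 76 of 18820 genes, and 44 of these had a mean signal above 50 in at least 1 of the 4 groups of tissue and genotype. Signal is the linear intensity of a probe set. The 44 genes were 11 Mmp, 11 Adam, 13 Adamts, 5 Adamts-like and 4 Timp genes. Of them, 24 passed the level in all 4 groups and 10 in only 1 group. Mmp9, Mmp10, Mmp13 and Mmp19 passed it in Tk2-/- skeletal muscle alone, Adam12, Adamts4 and Mmp17 in Tk2+/+ skeletal muscle alone, and Adam11, Adam22 and Timp1 in Tk2+/+ heart alone. A gene that entered through 1 group was bound to be brighter there, so counts of changed genes below are taken over all 76 genes. Just inside the level lay Adam11, Mmp10 and Mmp17 with group means of 53.8, 53.8 and 53.0, and just outside it Adamts14, Adamts16 and Mmp12 with 48.6, 44.8 and 44.1.

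RNA came from hind limb skeletal muscle and heart of C57BL/6 mice at 11 days of age that were either Tk2-/- or Tk2+/+, with 3 Affymetrix arrays for each genotype in each tissue. Tk2 encodes the mitochondrial kinase that starts the salvage of thymidine and deoxycytidine for mitochondrial DNA. The study asked how its loss changes gene expression in both tissues, and its methods say that each group's 3 samples are from separate mice. The labels give no sex. Xist, the transcript of the inactive X chromosome in females, had signals of 1047, 1.60 and 930.1 in Tk2-/- skeletal muscle, 1.45, 1.48 and 1193 in Tk2+/+ skeletal muscle, 779, 982 and 662 in Tk2-/- heart and 1499.6, 0.02 and 1549.8 in Tk2+/+ heart. It was thus near 0 in 1 Tk2-/- skeletal muscle array (replicate 2), 2 Tk2+/+ skeletal muscle arrays, 0 Tk2-/- heart arrays and 1 Tk2+/+ heart array. Tk2-/- replicate 2 and Tk2+/+ replicate 1 had a muscle array without and a heart array with Xist, so for these numbers the tissues came from different animals. The labels name no tissue-restricted driver of the knockout.

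Tk2 itself had signals of 64.7, 44.1 and 48.7 in Tk2-/- skeletal muscle and 62.9, 68.5 and 63.1 in Tk2+/+ skeletal muscle, with ranges that overlap. In heart it had 30.1, 46.2 and 31.7 in Tk2-/- mice and 70.2, 73.6 and 81.8 in Tk2+/+ mice, with no overlap. Where its probes lie relative to the disruption is not stated. Tissue labels fitted the markers: summed signals of 13 skeletal fibre genes were 60829 to 81353 in the 6 skeletal muscle arrays and 4221 to 8321 in the 6 heart arrays, and those of 11 cardiomyocyte genes were 3532 to 10394 in skeletal muscle and 42700.0 to 60324 in heart. Within skeletal muscle the cardiomyocyte genes summed to 3532 to 4262 in Tk2-/- mice and 8578 to 10394 in Tk2+/+ mice. Only 3 of these 11 genes passed the test described below as lower there and 1 as higher, against 10.9% and 11.6% of all genes. Their median log2 fold change in skeletal muscle was -0.14. Mean signal per array was 147 to 168 in Tk2-/- heart and 227 to 243 in Tk2+/+ heart, so the Tk2-/- heart arrays were dimmer as a whole. It was 225 to 246 in Tk2-/- skeletal muscle and 202 to 252 in Tk2+/+ skeletal muscle. Over all 18820 genes the median log2 fold change was -0.28 in heart and -0.02 in skeletal muscle. Heart changes are therefore given also after quantile normalization of the arrays within the tissue, called the normalized value. Changes are log2 fold changes of signal plus 16, Tk2-/- over Tk2+/+. In whole tissue, fewer cells of a type and less RNA per cell cannot be told apart.

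Matrix metalloproteinases (Mmp) are made as inactive zymogens, and many are secreted into the matrix while others stay anchored in the membrane. Members of the Adam family mostly sit in the cell membrane and release growth factors, cytokines and receptors from it, while Adamts proteases are secreted and cut proteoglycans and procollagens. Adamts-like proteins share the ancillary domains of Adamts proteases and have no protease domain. Timp proteins block the active site of Mmps and of some Adam and Adamts proteases, and in muscle and heart this balance is known for its part in matrix remodelling.

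In skeletal muscle the inhibitor Timp4 and the proteases Mmp13, Mmp9 and Mmp11 rose in Tk2-/- mice, while several Adam and Adamts genes fell. Of the 76 genes 9 rose, against 11.6% of all genes, and 15 fell, against 10.9% of all genes. The median log2 fold change over the 76 genes was -0.06. In 11 of the 76 all Tk2-/- skeletal muscle arrays were above all Tk2+/+ ones, against 16.9% of all genes, and in 22 they were below, against 18.8%. In heart 4 of the 76 rose, against 1.99% of all genes, and 37 fell, against 49.0% of all genes, so the share that fell was near that of all genes. All Tk2-/- heart arrays lay above the Tk2+/+ ones in 6 genes, against 3.16% of all genes, and below them in 40, against 53.3%. With normalized heart values 9 of the 76 rose, against 13.8% of all genes, and 21 fell, against 17.8%. With normalized skeletal muscle values 8 rose, against 13.9%, and 17 fell, against 14.8%. Only Mmp11 and Timp4 rose in both tissues on both scales, and Adam12, Adamts4, Adamts9, Adamts14, Adamts17, Adamtsl2, Mmp16 and Mmp23 fell in both tissues on both scales, against 156 and 1287 of all 18820 genes. In this account "rose" and "fell" mean an adjusted p under 0.05 in limma's moderated test, with Benjamini-Hochberg adjustment over 18820 genes.

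The inhibitors changed in different ways, and Timp4 rose most. Timp4, the Timp with the narrowest tissue range and a known product of heart, had signals of 1041, 1194 and 1042 in Tk2-/- skeletal muscle, against 165, 378 and 319 in Tk2+/+ skeletal muscle. Its heart signals were 826, 717 and 613 in Tk2-/- mice and 171, 209 and 396 in Tk2+/+ mice. In either tissue the dimmest Tk2-/- array was brighter than the brightest Tk2+/+ array. The log2 fold change of Timp4 was 1.94 ± 0.27 (SE) in skeletal muscle (adjusted p = 0.000114) and 1.50 ± 0.27 (SE) in heart (adjusted p = 0.000254), with a normalized value of 2.17 in heart (adjusted p = 0.000152). Adipocyte markers were higher in the same skeletal muscle arrays: 7 of 8 rose and 1 fell (all genes 11.6% and 10.9%). Their summed signal was 6307 to 7647 in Tk2-/- mice and 3200 to 3871 in Tk2+/+ mice, and none was at or below 10 in all arrays. In heart 0 of the 8 rose and 1 fell (all genes 1.99% and 49.0%), with sums of 5576 to 6161 in Tk2-/- mice and 6342 to 6923 in Tk2+/+ mice. The part of adipocytes in the Timp4 signal was not tested.

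Timp3 binds to the matrix and inhibits Adam17 and aggrecan-cutting Adamts proteases as well as Mmps. Its skeletal muscle signals were 1453, 1444 and 1215 in Tk2-/- mice and 846, 1098 and 799 in Tk2+/+ mice. In heart they were 1586, 1275 and 1609 in Tk2-/- mice and 627, 1013 and 1043 in Tk2+/+ mice. In both tissues all Tk2-/- arrays were above all Tk2+/+ arrays. Timp3 rose in heart by 0.75 on the log2 scale (SE 0.18, adjusted p = 0.00185; normalized 1.40, adjusted p = 0.000112). The skeletal muscle change was 0.58 ± 0.18 (SE) with an adjusted p of 0.026, which was 0.0821 after quantile normalization and 0.0753 to 0.104 when Tk2+/+ replicate 1, Tk2+/+ replicate 3, Tk2-/- replicate 1 or Tk2-/- replicate 2 was left out.

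Timp1 and Timp2 went the other way in heart. Timp2, which also takes part in the activation of pro-Mmp2 on the membrane by Mmp14, had 569.6, 579 and 491 in Tk2-/- heart, against 1162, 954 and 1239 in Tk2+/+ heart. Its log2 fold change there was -1.01 ± 0.11 (SE) (adjusted p = 4.82e-06) and its normalized value -0.32 (adjusted p = 0.00876). Timp1, the inhibitor best known for its induction by injury and cytokines, had 35.0, 32.7 and 34.2 in Tk2-/- heart, against 99.6, 65.0 and 95.1 in Tk2+/+ heart. Timp1 fell by 1.02 in heart on the log2 scale (adjusted p = 7.67e-06), with a normalized value of -0.63 (adjusted p = 0.000507). In skeletal muscle neither passed the test: Timp1 had a log2 fold change of -0.07 (95% confidence interval -0.33 to 0.18) and Timp2 one of 0.04 (-0.19 to 0.28).

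**Figure D1:**
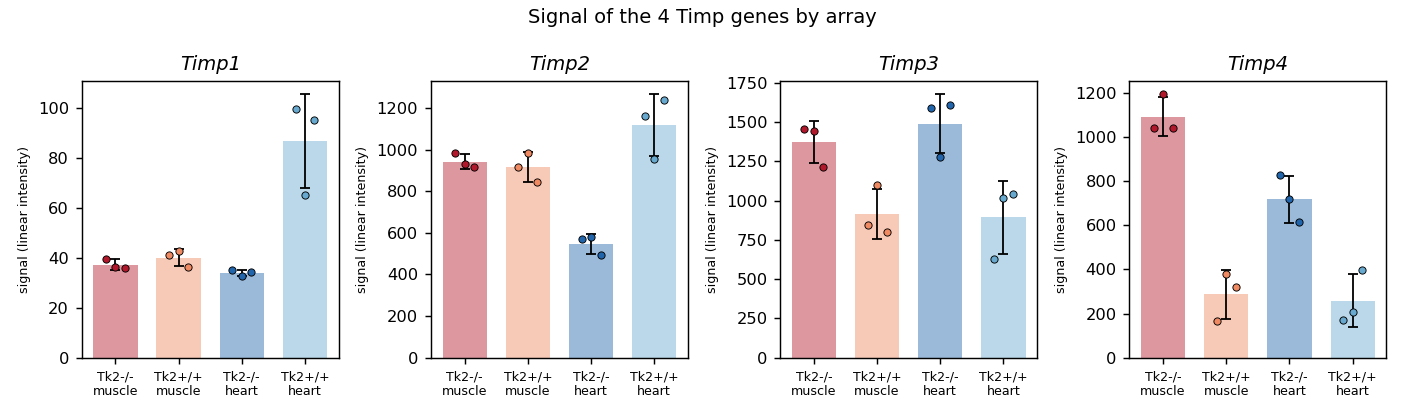
Signal (linear intensity, vertical axis) of Timp1, Timp2, Timp3 and Timp4 in skeletal muscle (left pair of bars) and heart (right pair), Tk2-/- before Tk2+/+. Points are single arrays, bars the mean of 3 arrays and whiskers the SD; Timp4 is brighter in all Tk2-/- arrays of either tissue, while Timp1 and Timp2 are dimmer in Tk2-/- heart.

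The sequences before the start sites of the 4 inhibitors are shown because Timp3 and Timp4 were brighter and Timp1 and Timp2 dimmer in the same Tk2-/- hearts, and because they are the stretches in which the motifs below were counted. Each is the 250 bases before the gene's start in RefSeq (build GRCm38.p6), read 5′ to 3′ on the gene's strand, with matches to 6 motifs searched on both strands in capitals. The motifs were AP-1 (TGANTCA), the glucocorticoid receptor element, a TATA box (TATAAA), Ets (AGGAAG), Sp1 (GGGCGG) and FoxO (GTAAACA), and no 2 matches overlap in the sequences shown. Timp4 lies at chr6:115252206-115252455 (- strand), Timp3 at chr10:86300162-86300411 (+ strand), Timp1 at chrX:20869916-20870165 (+ strand) and Timp2 at chr11:118355412-118355661 (- strand).
Timp4: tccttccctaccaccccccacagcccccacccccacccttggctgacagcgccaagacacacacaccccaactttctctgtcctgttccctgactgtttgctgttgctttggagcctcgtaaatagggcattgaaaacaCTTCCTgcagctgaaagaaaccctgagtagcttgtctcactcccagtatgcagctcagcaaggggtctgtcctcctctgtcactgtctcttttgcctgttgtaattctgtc
Timp3: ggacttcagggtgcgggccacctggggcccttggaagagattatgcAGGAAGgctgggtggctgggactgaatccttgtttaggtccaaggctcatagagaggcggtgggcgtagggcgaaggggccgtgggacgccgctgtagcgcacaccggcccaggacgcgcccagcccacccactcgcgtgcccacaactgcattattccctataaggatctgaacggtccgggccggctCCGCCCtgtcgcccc
Timp1: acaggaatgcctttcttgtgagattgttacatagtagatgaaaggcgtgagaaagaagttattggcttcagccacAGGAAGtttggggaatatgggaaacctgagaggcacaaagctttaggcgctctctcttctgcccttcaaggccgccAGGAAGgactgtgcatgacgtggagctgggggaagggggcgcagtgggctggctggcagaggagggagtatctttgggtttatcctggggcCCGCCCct
Timp2: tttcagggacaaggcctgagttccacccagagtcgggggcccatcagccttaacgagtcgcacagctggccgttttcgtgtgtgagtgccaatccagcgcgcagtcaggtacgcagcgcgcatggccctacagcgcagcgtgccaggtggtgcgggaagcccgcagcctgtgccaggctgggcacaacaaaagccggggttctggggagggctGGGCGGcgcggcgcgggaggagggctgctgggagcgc
The capitals mark an Ets match 111 bases before the start in Timp4, an Ets match 204 and an Sp1 match 15 bases before it in Timp3, Ets matches 175 and 99 and an Sp1 match 8 bases before it in Timp1, and an Sp1 match 37 bases before it in Timp2. Such matches are common: of 32851 mouse promoters of this length, 29.5% held the Ets letters and 32.7% the Sp1 letters. Timp1, Timp3 and Timp4 each overlap a synapsin gene in the annotation (Syn1, Syn3 and Syn2). Syn2 had signals of 66.3, 63.5 and 61.4 in Tk2-/- skeletal muscle and 55.8, 43.8 and 45.4 in Tk2+/+ skeletal muscle, a log2 fold change of 0.31 (adjusted p = 0.0322), while Syn1 and Syn3 passed the test in neither tissue.

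Among the collagenases and gelatinases, 4 of 6 genes rose in Tk2-/- skeletal muscle (3 of 6 with normalized values, Mmp2 not among them), against 11.6% and 13.9% of all genes, and Mmp13, Mmp8 and Mmp9 did so unevenly across the animals. Mmp13, the collagenase of hypertrophic cartilage and bone, had signals of 253, 183 and 24.9 in Tk2-/- skeletal muscle, against 18.5, 18.5 and 19.8 in Tk2+/+ skeletal muscle. Tk2-/- replicates 1 and 2 were far above every Tk2+/+ array, and replicate 3 was only slightly above them. The log2 fold change was 1.90 ± 0.44 (SE) with an adjusted p of 0.0059, and 2.73 without Tk2-/- replicate 3, 1.59 without replicate 2 and 1.37 without replicate 1. With a trended, robust prior for the spread the adjusted p was 0.0551. In heart Mmp13 did not pass the test, at 4.55 to 7.42 in Tk2-/- mice and 11.5 to 12.4 in Tk2+/+ mice.

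Ibsp, which encodes a sialoprotein of mineralised bone, was high in the same skeletal muscle arrays as Mmp13, with 83.8, 118 and 25.8 in Tk2-/- mice and 21.1, 22.6 and 32.6 in Tk2+/+ mice. Of 16 measured markers of tendon, cartilage and bone, 3 rose (Acp5, Ctsk and Ibsp) and 2 fell (Scx and Tnmd, which mark tendon). Of all genes 11.6% rose and 10.9% fell in skeletal muscle. The summed signal of the 16 markers was 785 to 1034 in Tk2-/- skeletal muscle and 802 to 961 in Tk2+/+ skeletal muscle. No marker was at or below 10 in all arrays, but only 7 of the 16 had a group mean above 50. The median log2 fold change of the 16 in skeletal muscle was -0.02. The part of these cells in the Mmp13 signal was not tested.

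The promoter of Mmp13 is shown because Mmp13 had the largest difference in genotype effect between the tissues among the 76 genes. Its 250 bases before the start lie at chr9:7272264-7272513 (+ strand).
Mmp13: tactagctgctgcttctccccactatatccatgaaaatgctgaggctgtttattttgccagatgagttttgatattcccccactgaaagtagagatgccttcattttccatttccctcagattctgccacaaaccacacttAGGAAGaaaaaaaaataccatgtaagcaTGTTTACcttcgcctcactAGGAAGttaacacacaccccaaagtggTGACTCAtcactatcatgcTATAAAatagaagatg
The capitals mark Ets matches 109 and 62 bases, a FoxO match 81 bases, an AP-1 match 35 bases and a TATA box 16 bases before the annotated start. Of all promoters of this length 6.75% held the AP-1 letters, 12.4% the TATA box and 3.17% the FoxO letters. Promoter entries were found for 26 of the 44 genes, of which 3 held AP-1 and 0 held the glucocorticoid receptor element, against 0.387% of all promoters.

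Mmp9, the gelatinase stored in neutrophil granules and made by osteoclasts, had 90.2, 155 and 50.3 in Tk2-/- skeletal muscle, against 42.4, 34.7 and 43.8 in Tk2+/+ skeletal muscle. The groups did not overlap, and Tk2-/- replicate 2 was the highest. The change was 0.92 ± 0.23 (SE) on the log2 scale (adjusted p = 0.00961), and 0.58 without replicate 2 (adjusted p = 0.0381). In heart Mmp9 had 10.2, 6.27 and 11.0 in Tk2-/- mice and 11.9, 14.3 and 7.71 in Tk2+/+ mice, which did not pass the test (log2 fold change -0.11, normalized -0.08). Mmp8, the neutrophil collagenase, had no group mean above 50 and had signals of 8.56, 68.5 and 19.9 in Tk2-/- skeletal muscle, against 6.57, 8.50 and 3.67 in Tk2+/+ skeletal muscle (log2 fold change 0.92, adjusted p = 0.0316). Neutrophil genes were highest in the same animal: Ngp had 17.1, 548 and 65.1 in Tk2-/- mice and 7.66 to 10.4 in Tk2+/+ mice. S100a8 had 35.3, 274 and 62.4 in Tk2-/- mice and 10.5 to 17.9 in Tk2+/+ mice. Over 13 neutrophil and mast cell markers the summed signal was 631 to 1906 in Tk2-/- skeletal muscle and 550.3 to 574 in Tk2+/+ skeletal muscle. Of these markers 4 rose and 1 fell (all genes 11.6% and 10.9%). The part of these cells in the Mmp8 and Mmp9 signals was not tested.

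**Figure D2:**
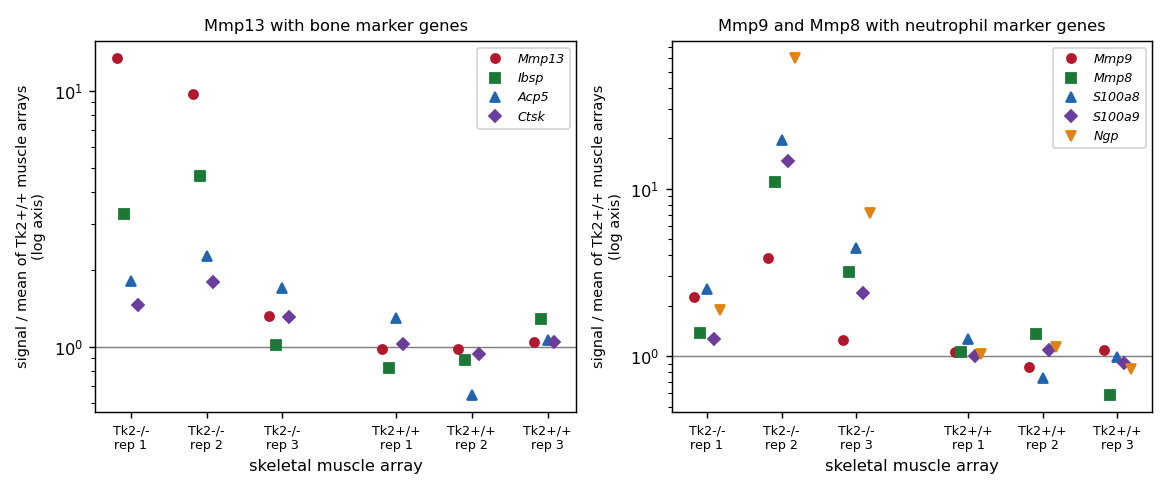
Signal in each skeletal muscle array divided by the mean of the 3 Tk2+/+ skeletal muscle arrays (log axis, 1 marked by a line), for Mmp13 with 3 bone markers and for Mmp9 and Mmp8 with 3 neutrophil markers. The bone markers shown are the 3 that rose of 16 tendon, cartilage and bone markers, of which 2 fell (all genes 11.6% and 10.9%). Mmp13 and Ibsp are raised most in Tk2-/- replicates 1 and 2. Acp5 and Ctsk are raised in replicate 3 too, at 1.69 and 1.31 times the Tk2+/+ mean. The neutrophil markers are highest in Tk2-/- replicate 2, where Ngp reaches 60.1 times the Tk2+/+ mean.

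Mmp2, the gelatinase of fibroblasts, and Mmp14, the membrane protease that activates it, were bright in every array. Mmp2 had 1477, 1666 and 1418 in Tk2-/- skeletal muscle, against 1054, 1335 and 1138 in Tk2+/+ skeletal muscle. It rose there by 0.37 on the log2 scale with the deposited values (adjusted p = 0.026), and the normalized value was 0.23 (adjusted p = 0.0547). Leaving out Tk2+/+ replicate 1, Tk2+/+ replicate 3 or Tk2-/- replicate 2 gave adjusted p of 0.0747 to 0.131. In heart Mmp2 had 944, 907 and 862 in Tk2-/- mice and 1599.6, 1373 and 1652 in Tk2+/+ mice. The change of -0.76 with the deposited values was -0.08 with normalized ones (adjusted p = 0.477).

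Mmp14 had 388, 451 and 451 in Tk2-/- skeletal muscle and 365, 347 and 307 in Tk2+/+ skeletal muscle, and its log2 fold change of 0.33 did not pass the test (adjusted p = 0.147). In heart it had 165, 132 and 169 in Tk2-/- mice and 319, 193 and 265 in Tk2+/+ mice. The change there was -0.66 with the deposited values and 0.01 with normalized ones. Only the first passed the test.

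Of 5 stromelysin, matrilysin and elastase genes, Mmp11 was the one that rose in both tissues. Mmp11, or stromelysin 3, is activated inside the cell by furin. It had 116, 95.6 and 112 in Tk2-/- skeletal muscle, against 60.8, 66.7 and 61.7 in Tk2+/+ skeletal muscle, and 86.9, 82.8 and 77.4 in Tk2-/- heart, against 73.9, 58.5 and 52.2 in Tk2+/+ heart. Neither pair of groups overlapped. It rose by 0.64 in skeletal muscle (SE 0.11, adjusted p = 0.000624) and by 0.35 in heart (SE 0.11, adjusted p = 0.0142; normalized 0.82, adjusted p = 3.49e-05). Without Tk2+/+ heart replicate 3 or Tk2-/- heart replicate 1 the adjusted p of the deposited heart values was 0.0766 or 0.0565. Mmp12, the macrophage elastase, rose in skeletal muscle by 0.34 (adjusted p = 0.0283) at signals of 37.0 to 48.2 in Tk2-/- mice and 29.1 to 35.2 in Tk2+/+ mice, below the level of 50. Mmp3, or stromelysin 1, was dim throughout and rose in heart, with 25.0, 31.7 and 22.3 in Tk2-/- mice and 8.61, 20.2 and 15.8 in Tk2+/+ mice (log2 fold change 0.47, normalized 0.58).

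The membrane-anchored Mmps fell or did not pass the test in skeletal muscle. Mmp23, an unusual member without the hemopexin domain, had 58.5, 40.3 and 36.5 in Tk2-/- skeletal muscle, against 148, 106 and 101 in Tk2+/+ skeletal muscle. Its heart signals were 55.9, 56.0 and 47.3 in Tk2-/- mice and 156, 96.5 and 171 in Tk2+/+ mice. Every Tk2-/- array was below every Tk2+/+ array of its tissue. Mmp23 fell by 1.13 in skeletal muscle (SE 0.18, adjusted p = 0.000383) and fell by 1.16 in heart (adjusted p = 8.07e-05; normalized -0.63, adjusted p = 0.00851). Mmp16, another transmembrane member, fell by 0.68 in skeletal muscle and fell by 0.95 in heart (normalized -0.46). The remaining ones above the level changed less in skeletal muscle. Mmp17, which has a glycolipid anchor, had log2 fold changes of -0.18 in skeletal muscle and -0.07 in heart, neither past the threshold. Mmp24 passed it only as a normalized heart value of 1.05 (adjusted p = 0.00302; deposited values 0.45, adjusted p = 0.0707). Mmp19, a secreted Mmp grouped apart, had a skeletal muscle change of 0.34 (adjusted p = 0.0794).

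**Figure D3:**
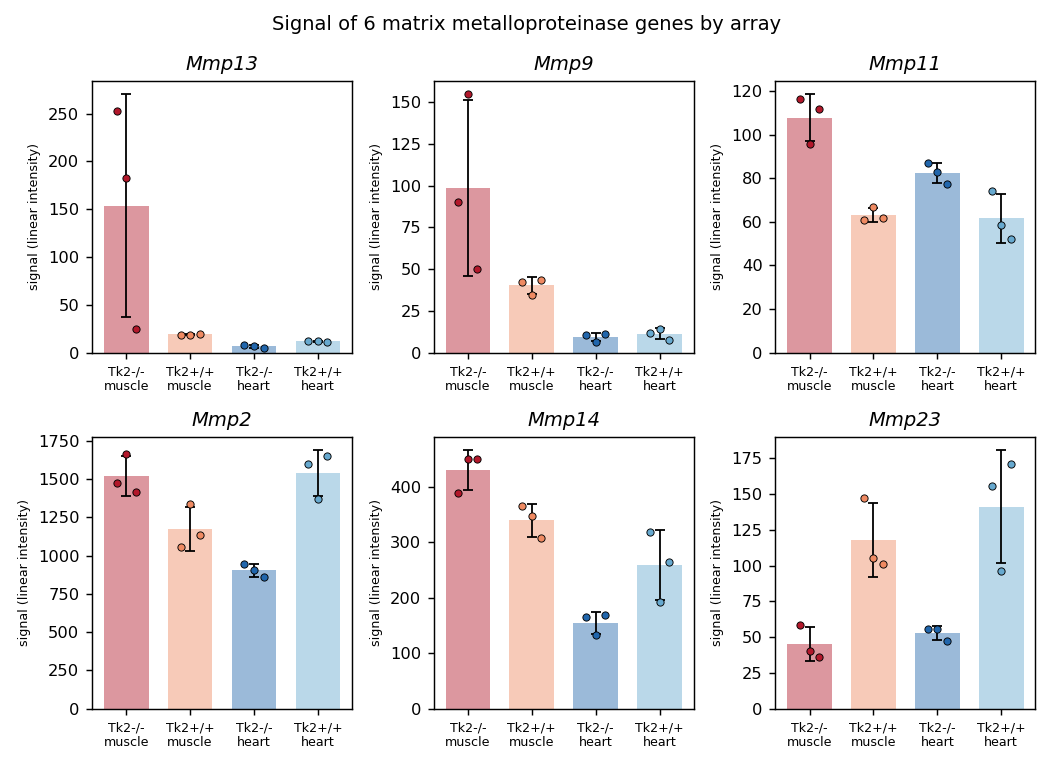
Signal (linear intensity, vertical axis) of Mmp13, Mmp9, Mmp11, Mmp2, Mmp14 and Mmp23 in skeletal muscle (left pair of bars) and heart (right pair), Tk2-/- before Tk2+/+. Points are single arrays, bars means of 3 arrays and whiskers SD; the Tk2-/- skeletal muscle arrays spread widely for Mmp13 and Mmp9, and Mmp23 is dimmer in Tk2-/- arrays of both tissues.

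Among the 9 Adam proteases 2 fell and 0 rose in skeletal muscle, or 3 and 0 with normalized values, against 10.9% and 14.8% of all genes that fell. In heart 6 of the 9 fell, or 4 with normalized values, against 49.0% and 17.8% of all genes. Adam12, also called meltrin alpha and known from fusing myoblasts, had 17.5, 23.2 and 26.0 in Tk2-/- skeletal muscle, against 81.0, 65.6 and 56.2 in Tk2+/+ skeletal muscle. Its heart signals were 8.60, 12.7 and 5.06 in Tk2-/- mice and 33.5, 22.7 and 25.4 in Tk2+/+ mice. The genotypes were fully apart in both tissues. Adam12 fell by 1.12 on the log2 scale in skeletal muscle (SE 0.14, adjusted p = 4.74e-05) and fell by 0.81 in heart (adjusted p = 0.000198; normalized -0.72, adjusted p = 0.00175). It had entered the 44 genes through Tk2+/+ skeletal muscle, where it was brightest. Of 11 markers of myogenic progenitors and fusing myoblasts, 5 fell in Tk2-/- skeletal muscle and 0 rose (all genes 10.9% and 11.6%). Their summed signal was 1179.8 to 1455 in Tk2-/- mice and 1960.2 to 2693 in Tk2+/+ mice. The part of these cells in the Adam12 signal was not tested.

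Adam19, or meltrin beta, a sheddase of neuregulin, had 135, 90.0 and 116 in Tk2-/- skeletal muscle, against 223, 209.7 and 181 in Tk2+/+ skeletal muscle. It fell by 0.78 there (SE 0.16, adjusted p = 0.00288). In heart the log2 fold change was -0.93 with the deposited values (adjusted p = 0.000181) and -0.27 with normalized ones (adjusted p = 0.154).

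Adam17, which releases tumour necrosis factor and ligands of the epidermal growth factor receptor, and Adam10, the main sheddase of Notch receptors, were lower in heart. Adam17 had 146, 197 and 112 in Tk2-/- heart, against 462, 439 and 436 in Tk2+/+ heart. Adam10 had 233, 302 and 182 in Tk2-/- heart, against 589.8, 484 and 579 in Tk2+/+ heart. For both the groups lay far apart. Adam17 fell by 1.49 (SE 0.14, adjusted p = 1.77e-06; normalized -0.82, adjusted p = 0.000184) and Adam10 fell by 1.17 (SE 0.14, adjusted p = 9.13e-06; normalized -0.49, adjusted p = 0.00307). In skeletal muscle Adam17 had 226, 228 and 238 in Tk2-/- mice and 276, 303 and 253 in Tk2+/+ mice (log2 fold change -0.25, adjusted p = 0.265). Adam10 had a skeletal muscle change of -0.13 (95% confidence interval -0.43 to 0.18).

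Adam15 fell by 1.15 in heart, with a normalized value of -0.47. Adam9 had a heart change of -0.88 with the deposited values and -0.20 with normalized ones, the second not past the threshold (adjusted p = 0.0551). Adam33 was the one Adam protease that rose with normalized heart values (0.57, adjusted p = 0.0221; deposited values 0.31, adjusted p = 0.107). Of the 3 catalytically inactive adhesion proteins Adam11, Adam22 and Adam23, only Adam23 fell in heart on both scales (-0.82, normalized -0.53). Adam11 had -0.45 there (normalized -0.15) and Adam22 -0.59 (normalized -0.23). Of 17 testis-type Adam genes only Adam24 reached the level of 50, and it passed the test in neither tissue.

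The 7 proteoglycan-cutting Adamts genes fell or did not pass the test. Adamts20, a versican-cutting protease known from the belted coat mutants of the mouse, had 212, 123 and 189.6 in Tk2-/- skeletal muscle, against 540.3, 509 and 383 in Tk2+/+ skeletal muscle. It fell by 1.39 there on the log2 scale (SE 0.17, adjusted p = 2.9e-05), the largest fall among the 76 genes in that tissue. In heart its signals were 11.6 to 14.0 in Tk2-/- mice and 8.57 to 14.5 in Tk2+/+ mice, below the offset of 16 that was added before the log2 was taken. Adamts4, an aggrecanase, had 26.1, 28.2 and 32.5 in Tk2-/- skeletal muscle, against 69.5, 51.1 and 57.0 in Tk2+/+ skeletal muscle. Its heart signals were 9.53, 11.3 and 8.51 in Tk2-/- mice and 64.1, 22.8 and 49.2 in Tk2+/+ mice. It fell by 0.74 in skeletal muscle (adjusted p = 0.0111, 0.0527 without Tk2+/+ replicate 1) and fell by 1.19 in heart (adjusted p = 8.73e-05; normalized -1.02). Tk2+/+ skeletal muscle replicate 1 was the highest of its group for Adamts4, Mmp16 and Mmp23. This was not particular to these genes, as it held also for Adam12, Adam19, Adamts3, Adamts20 and Adamtsl1, but not for Adamts1, Mmp2 or Timp3. It held for the leucocyte gene Ptprc too, with 90.2 to 129 in Tk2-/- mice and 419, 104 and 98.2 in Tk2+/+ mice. Ptprc was picked after its values were seen, and the other leucocyte markers are not given by array here. The counts that follow compare genotypes and do not show which replicate was highest. Ptprc is 1 of 16 macrophage and leucocyte markers, of which 2 rose and 1 fell in skeletal muscle (all genes 11.6% and 10.9%). These markers summed to 2076 to 2481 in Tk2-/- mice and 1863 to 2819 in Tk2+/+ mice. The part of leucocytes in these signals was not tested.

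Adamts9, which also cuts versican, fell by 0.50 in skeletal muscle (adjusted p = 0.00834) and fell by 1.14 in heart (normalized -0.45, adjusted p = 0.00629). All 6 of its probe sets were lower in Tk2-/- mice in both tissues. The smallest of these changes in skeletal muscle did not pass the test (adjusted p = 0.0727). Another probe set had a normalized heart value of -0.23 (adjusted p = 0.122). Adamts1, which cuts versican, had 405, 255 and 209.8 in Tk2-/- skeletal muscle and 259, 262 and 206 in Tk2+/+ skeletal muscle, which overlap. Its heart signals were 149, 247 and 137 in Tk2-/- mice and 359, 497 and 524 in Tk2+/+ mice. There it fell by 1.32 (SE 0.23, adjusted p = 0.000151; normalized -0.65, adjusted p = 0.0309). Its chromosomal neighbour Adamts5, the other main aggrecanase, had signals of 220.0 to 228 in Tk2-/- skeletal muscle and 238 to 249.8 in Tk2+/+ skeletal muscle (log2 fold change -0.11, adjusted p = 0.656). Adamts5 had a normalized heart value of 0.19 (adjusted p = 0.175), against -0.50 with the deposited values.

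Adamts3, which removes the N-propeptide of procollagen, had 70.0, 44.4 and 45.9 in Tk2-/- skeletal muscle, against 103, 102 and 88.0 in Tk2+/+ skeletal muscle. It fell by 0.73 (adjusted p = 0.00184), and all 16 of its probe sets were lower in Tk2-/- skeletal muscle. Several of these did not pass the test there, with adjusted p of 0.103 to 0.527. In heart Adamts3 had a change of -0.68 with the deposited values and -0.05 with normalized ones (adjusted p = 0.771). Its next brightest probe set had a normalized heart value of -0.38 (adjusted p = 0.0113). Adamts14, of the same function, fell by 0.54 in skeletal muscle and fell by 0.48 in heart (normalized -0.37), with all group means below 50.

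Of the other Adamts genes above the level, Adamts12 and Adamts17 had the largest falls in heart. Adamts12, which cuts cartilage oligomeric matrix protein, had 83.0, 103 and 67.1 in Tk2-/- heart, against 302, 219.8 and 275 in Tk2+/+ heart. Adamts17, linked in humans to a syndrome like that of Weill and Marchesani, had 75.1, 70.4 and 66.6 in Tk2-/- heart, against 241, 177 and 191 in Tk2+/+ heart. Neither gene had overlapping groups. Adamts12 fell by 1.49 (SE 0.13, adjusted p = 1.11e-06; normalized -0.88, adjusted p = 7.42e-05) and Adamts17 fell by 1.33 (SE 0.13, adjusted p = 2.13e-06; normalized -0.73, adjusted p = 0.000126). Adamts17 fell by 0.69 in skeletal muscle too (adjusted p = 0.0013). Its 4 probe sets above the level differed in size, from -1.86 to -0.31 in skeletal muscle and from -2.04 to -0.35 in heart. The smallest of these changes did not pass the test in skeletal muscle (adjusted p = 0.111), and that probe set had a normalized heart value of 0.17 (adjusted p = 0.199). Adamts7 and Adamts10 fell in heart with the deposited values only (-0.75 and -0.89, normalized -0.12 and -0.24). Adamts6, in contrast, rose with normalized heart values only (0.39, adjusted p = 0.00755).

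The 5 Adamts-like genes moved in both directions in skeletal muscle, where 1 rose and 3 fell on either scale (all genes 11.6% and 10.9%, normalized 13.9% and 14.8%). Adamtsl4, which binds fibrillin microfibrils, had 499, 375 and 283 in Tk2-/- skeletal muscle, against 186, 189.8 and 185 in Tk2+/+ skeletal muscle. It rose by 0.95 (SE 0.15, adjusted p = 0.00026). In heart it had 228, 239.9 and 224 in Tk2-/- mice and 188, 169.5 and 204 in Tk2+/+ mice, a change of 0.28 with the deposited values (adjusted p = 0.128) and 0.94 with normalized ones (adjusted p = 0.000206). Adamtsl2, linked in humans to geleophysic dysplasia, behaved differently. It had 59.3, 72.4 and 45.1 in Tk2-/- heart, against 203, 184 and 276 in Tk2+/+ heart, and 29.9, 23.7 and 20.9 in Tk2-/- skeletal muscle, against 43.0, 42.6 and 39.2 in Tk2+/+ skeletal muscle. It fell by 1.66 in heart (SE 0.15, adjusted p = 1.25e-06; normalized -1.09), the largest fall among the 76 genes there with the deposited values, and fell by 0.50 in skeletal muscle (adjusted p = 0.025). Adamtsl1 had 100.1, 83.9 and 75.9 in Tk2-/- skeletal muscle, against 189, 157 and 151 in Tk2+/+ skeletal muscle, and fell by 0.82 (adjusted p = 7.52e-05). Adamtsl5 fell by 0.57 in skeletal muscle (adjusted p = 0.0229) while Adamtsl3 fell in heart, with 38.2, 39.1 and 33.1 in Tk2-/- mice and 101, 87.4 and 82.2 in Tk2+/+ mice (adjusted p = 1.46e-05; normalized -0.60).

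**Figure D4:**
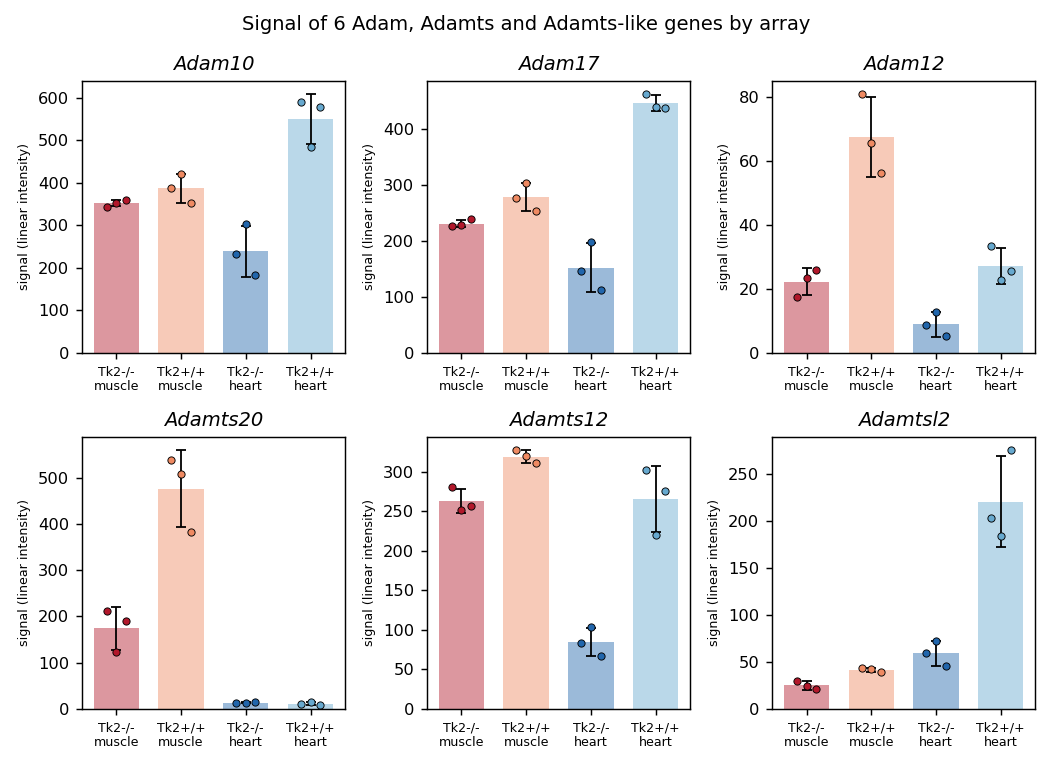
Signal (linear intensity, vertical axis) of Adam10, Adam17, Adam12, Adamts20, Adamts12 and Adamtsl2 in skeletal muscle (left pair of bars) and heart (right pair), Tk2-/- before Tk2+/+. Points are single arrays, bars means of 3 arrays and whiskers SD; Adam12 and Adamts20 are dimmer in Tk2-/- skeletal muscle, and 5 of the 6 genes, Adamts20 excepted, are dimmer in Tk2-/- heart.

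Fibroblast genes, which several of these proteases accompany in connective tissue, were lower in the same arrays. Of 16 fibroblast markers 12 fell and 1 rose in Tk2-/- skeletal muscle. In Tk2-/- heart 16 fell with deposited values, and 13 fell and 2 rose with normalized ones. Of all genes 10.9% fell in skeletal muscle, and 49.0% fell in heart, or 17.8% with normalized values. Summed fibroblast signal was 10192 to 12454 in Tk2-/- skeletal muscle and 18105 to 20688 in Tk2+/+ skeletal muscle, and it was 6833 to 8251 in Tk2-/- heart and 15426 to 19985 in Tk2+/+ heart. No fibroblast marker was at or below 10 in all arrays. Macrophage and leucocyte markers fell in heart, 13 of 16 with deposited and 11 with normalized values (all genes 49.0% and 17.8%). Of 12 endothelial markers 11 fell and 0 rose in heart, or 4 fell and 2 rose with normalized values. Of 10 smooth muscle and pericyte markers 9 fell and 0 rose, or 3 fell and 2 rose with normalized values. Of all genes 1.99% rose in heart, or 13.8% with normalized values. The normalized median log2 fold change was -0.12 for the endothelial and -0.13 for the smooth muscle and pericyte markers. The macrophage and leucocyte markers summed in heart to 1089.8 to 1324 in Tk2-/- mice and 2719 to 3361 in Tk2+/+ mice. The part of any of these cells in the falls of Adam, Adamts and Mmp genes was not tested.

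**Figure D5:**
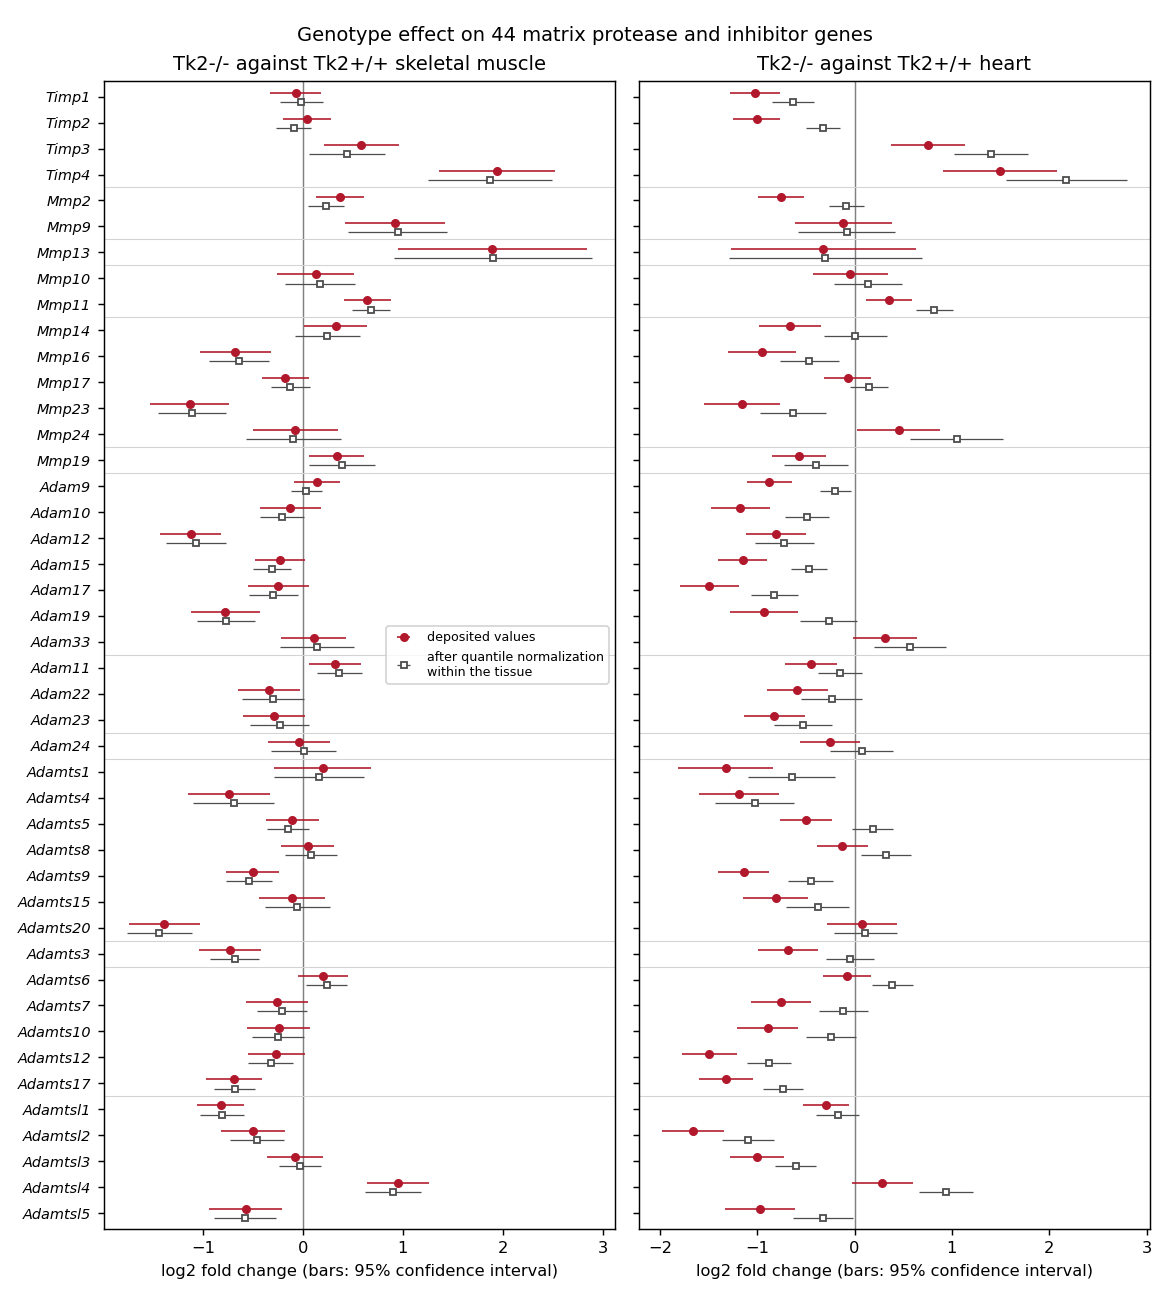
Log2 fold change, Tk2-/- against Tk2+/+, of the 44 genes in skeletal muscle (left) and heart (right), with 95% confidence intervals. Filled circles are deposited values and open squares values after quantile normalization within the tissue. Genes are grouped by function, and Timp4 has the largest rise in heart on both scales, while in skeletal muscle Timp4 and Mmp13 stand farthest to the right.

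Genes of proteins that act on these proteases were counted from lists. Among activators of Mmp zymogens, 1 of 11 rose and 2 fell in skeletal muscle (all genes 11.6% and 10.9%). Furin, the convertase that activates Mmp11 and Mmp14, had 679.7, 928 and 740.3 in Tk2-/- skeletal muscle, against 461, 505 and 439 in Tk2+/+ skeletal muscle (log2 fold change 0.71, adjusted p = 0.000863). Plat, the tissue plasminogen activator, fell by 0.74 (adjusted p = 0.000548) and the convertase gene Pcsk6 fell by 1.01 (adjusted p = 0.000953). In heart 6 of the 11 fell with deposited values and 4 with normalized ones, against 49.0% and 17.8% of all genes. Pcsk6 fell by 1.97 there (normalized -1.30), while Furin had a normalized heart value of 0.54 (adjusted p = 0.00298).

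Of 15 genes listed with protease inhibitors outside the Timp family, 3 rose and 3 fell in skeletal muscle. In heart 2 rose and 7 fell, or 4 and 4 with normalized values. Of all genes 11.6% rose in skeletal muscle and 1.99% in heart, or 13.8% with normalized heart values. All genes that fell were 10.9% in skeletal muscle and 49.0% in heart, or 17.8% with normalized values, so the heart share of 7 in 15 was near that of all genes. Reck, a membrane-anchored inhibitor of Mmps, fell by 0.63 in skeletal muscle (adjusted p = 0.00355) and had 149, 124 and 111 in Tk2-/- mice and 220.3, 207 and 192 in Tk2+/+ mice. Spock2, a testican proteoglycan, had 314, 308 and 219 in Tk2-/- skeletal muscle, against 55.1, 70.4 and 81.1 in Tk2+/+ skeletal muscle. It rose by 1.80 there and by 1.94 in heart (normalized 2.48), and whether its product inhibits these proteases was not tested. Serpina3n, a secreted serine protease inhibitor, rose by 3.12 in skeletal muscle (adjusted p = 2.98e-06) and by 0.88 in heart (adjusted p = 0.0171). Papln, whose product papilin has domains of the Adamts family, fell by 1.71 in skeletal muscle and fell by 2.43 in heart (normalized -2.07).

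Of 24 matrix proteins that these proteases cut, 0 rose and 14 fell in skeletal muscle, and 0 rose and 18 fell in heart, or 1 and 15 with normalized values. Against these counts, 10.9% of all genes fell in skeletal muscle and 49.0% in heart, or 17.8% with normalized values. Vcan, encoding versican, the substrate of Adamts1, Adamts4, Adamts9 and Adamts20, had 142, 140.2 and 120.1 in Tk2-/- skeletal muscle, against 391, 260.2 and 241 in Tk2+/+ skeletal muscle, a log2 fold change of -1.03 (adjusted p = 0.000661). The collagen gene Col3a1 fell by 1.43 in skeletal muscle (adjusted p = 6.44e-05) and fell by 2.30 in heart (normalized -1.62). Of 5 genes of the Bmp1 group, which cut the C-propeptide of procollagen or help to, 3 fell in skeletal muscle, with 624, 512 and 502 for Pcolce in Tk2-/- mice and 1748, 1795 and 1528 in Tk2+/+ mice. Of 14 partners of sheddases and clearance receptors 3 rose in skeletal muscle and 1 fell (all genes 11.6% and 10.9%). Rhbdf2, which encodes the rhomboid-like partner that carries Adam17 to the cell surface, rose by 1.24 (adjusted p = 2.05e-05), with 240.1, 320.2 and 210.3 in Tk2-/- mice and 90.0, 113 and 92.4 in Tk2+/+ mice. Of 20 membrane proteins that are shed, 3 rose and 5 fell in skeletal muscle, against the same shares of all genes. The interleukin 6 receptor gene Il6ra, whose product is a substrate of Adam17 and Adam10, rose by 2.35 (adjusted p = 6.75e-08).

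Among 13 serine and cysteine proteases of the matrix, 3 rose and 5 fell in skeletal muscle (all genes 11.6% and 10.9%). Ctsl, the lysosomal cathepsin L, rose by 1.64 (adjusted p = 4.12e-06) and Htra1, a secreted serine protease, fell by 1.19 (adjusted p = 1.65e-05). In heart 1 of the 13 rose and 8 fell (all genes 1.99% and 49.0%), or 2 and 2 with normalized values (13.8% and 17.8%).

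The genotype effect was set between the tissues by an interaction contrast, skeletal muscle minus heart. With deposited values 23 of the 76 genes were higher in this difference, against 41.3% of all genes, and 3 were lower, against 1.39%. With values normalized within each tissue 8 were higher, against 5.97% of all genes, and 6 lower, against 4.54%. Mmp13 had a difference of 2.21 ± 0.63 (SE) (adjusted p = 0.00972, normalized 0.0478, and 0.0649 with a trended, robust prior). Adamts20 had the largest difference the other way, -1.46 ± 0.24 (SE) (adjusted p = 0.000277, normalized 0.000845). On both scales Adam11, Adamts12, Adamtsl2, Adamtsl3, Mmp12, Mmp13, Mmp19 and Timp1 were higher in skeletal muscle relative to heart, and Adamts16, Adamts20 and Adamtsl1 lower. Timp4 did not pass this test, with a difference of 0.45 (95% confidence interval -0.38 to 1.27) and a normalized -0.31 (-1.18 to 0.57). For Timp3 the normalized difference was -0.96 (adjusted p = 0.0293), that is, a smaller rise in skeletal muscle than in heart, while the deposited values gave -0.17 (adjusted p = 0.66).

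Between tissues of Tk2+/+ mice, 24 of the 76 genes were brighter in skeletal muscle, against 30.6% of all genes, and 15 brighter in heart, against 18.4%. Adamts20 stood out, with a mean of 477 ± 83.1 in skeletal muscle and 11.3 ± 3.01 in heart (SD, n = 3 each; log2 fold change 4.17). Adamtsl1 followed with 166 ± 20.2 in skeletal muscle and 26.1 ± 3.16 in heart (2.11). Both were lower in the interaction contrast as well. Adam33, a gene known from airway smooth muscle, was higher in skeletal muscle by 1.17 and Mmp9 by 1.05. On the heart side Adamtsl2 had 41.6 ± 2.13 in skeletal muscle and 221 ± 48.4 in heart (-2.02). Adamts7 (-1.19), Adamts6 (-0.95) and Adamts3 (-0.90) were next. The inhibitors Timp3 and Timp4 did not pass the test between the Tk2+/+ tissues, with log2 fold changes of 0.05 (95% confidence interval -0.32 to 0.43) and 0.15 (-0.43 to 0.74). Timp1 was dimmer in Tk2+/+ skeletal muscle than in Tk2+/+ heart (log2 fold change -0.86, adjusted p = 4.38e-05).

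Several of these genes lie side by side, which the choice by symbol did not use. Mmp13, Mmp12, Mmp1b, Mmp3, Mmp1a, Mmp10 and Mmp8 follow each other on chromosome 9. Of these 7 only Mmp8, Mmp12 and Mmp13 rose in Tk2-/- skeletal muscle, against 11.6% of all genes. Mmp10 had 47.4 to 58.1 in Tk2-/- skeletal muscle and 36.5 to 54.6 in Tk2+/+ skeletal muscle (log2 fold change 0.13, adjusted p = 0.72), and Mmp1a and Mmp1b did not exceed 12.5 in any array. Adamts1 and Adamts5 are neighbours on chromosome 16 and both were lower in heart with deposited values, whereas only Adamts1 was with normalized ones. Adamts15 and Adamts8 are neighbours on chromosome 9 and passed the test in skeletal muscle in neither case. In heart Adamts15 had -0.81 (normalized -0.38) and Adamts8 had -0.12 (normalized 0.33). Of the 32 matched genes below the level, Mmp8 and Mmp12 rose and Adam4, Adamts14 and Adamts16 fell in Tk2-/- skeletal muscle (all genes 11.6% and 10.9%). Overlapping genes share part of their span with Timp1, Timp2, Timp3, Timp4, Adam17, Adamts4, Mmp19, Mmp23 and Mmp24, and whether their probes lie in shared exons is not stated.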

How the data were processed

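Expression was measured in 12 samples (3 for each tissue and genotype) on Affymetrix Mouse Gene 1.1 ST arrays. The authors deposited 1 linear intensity per probe set and array, made, by the submitters' processing notes, with Affymetrix Expression Console and the PLIER algorithm (no versions given). How arrays were normalized to each other is not described in the methods, which name a t-test. Of 35556 probe sets, 21218 carried 1 symbol, 1881 several and 12457 none. The brightest single-symbol probe set stood for each of 18820 genes. The 10 matching probe sets with several symbols were not used.

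Changes are on the scale log2(signal + 16), which understates those of dim genes. One limma fit (version 3.58.1, R 4.3.3) held the 4 group means (8 residual degrees of freedom, two-sided, Benjamini-Hochberg over all genes, threshold 0.05). The number of arrays limits the precision. Within groups, arrays correlated at 0.981 to 0.994. Members, marker lists and pathway lists were chosen with earlier results of these data known. Genes named with full values were all Timp genes, Mmp2, Mmp9, Mmp14, Adam10 and Adam17, the 6 largest changes each way per tissue past the threshold with groups apart, the 5 largest differences between tissues each way, the 4 largest tissue differences each way, and up to 4 genes per list. Other members above the level may be named with their change. Mmp1a, Mmp1b, Mmp3, Mmp8, Mmp12, Adam4, Adamts14, Adamts16, Reck, Vcan and Ptprc fall outside this rule and were named after their values were seen. Promoter sequences came from RefSeq (GRCm38.p6). No entry was used for Mmp2, Mmp9 and Adam12. The fit was tested on simulated data in which each gene had the same spread in all 4 groups. That test does not cover genes whose spread differed between groups, such as Mmp13 and Mmp9. Alternatives were 5 other scalings, another offset, a filter, other probe set rules, other estimates of spread, blocks, sex as a covariate, the methods' t-test and leaving out each array. Figures were drawn with Python 3.11.15 and matplotlib 3.10.9.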

Additional observations from a re-analysis of the deposited data

Results flagged for a closer look

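The 7 genes named for the difference between tissues were taken from members past the threshold in limma's interaction contrast, skeletal muscle minus heart. That they passed it with deposited values was thus set by the choice. Mmp13 differed by 2.21 (adjusted p = 0.00972), with a rise of 1.90 in skeletal muscle that was largest in Tk2-/- replicates 1 and 2 and a heart change of -0.32 at signals under the offset. Adamts1 differed by 1.52 (adjusted p = 0.00147) and by 0.81 after quantile normalization within each tissue (adjusted p = 0.103). Adam17 differed by 1.24 (adjusted p = 0.000295) and by 0.53 after that normalization (adjusted p = 0.0511). Adamts12 differed by 1.23 (adjusted p = 0.000211), or 0.56 after it (adjusted p = 0.0312). Adamtsl2 differed by 1.16 (adjusted p = 0.000613), or 0.63 after it (adjusted p = 0.0387). In the other direction Adamts20 differed by -1.46 (adjusted p = 0.000277) and Adamtsl1 by -0.53 (adjusted p = 0.0116), both genes dim in heart. After normalization Mmp13 differed by 2.20 (adjusted p = 0.0478), Adamts20 by -1.55 (adjusted p = 0.000845) and Adamtsl1 by -0.63 (adjusted p = 0.016). The Tk2-/- heart arrays were dimmer as a whole, and the median difference over all genes was 0.30 with deposited values and 0.01 after normalization.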

How the results depend on the processing

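Over 29 other settings, 25 of 48 results for single genes kept their side of the threshold under each setting that gave a value. Those of them past the threshold also kept their direction. Those not past it could change sign: Timp2 in skeletal muscle ranged from -0.09 to 0.10 and Mmp9 in heart from -0.27 to 0.17. The heart counts depended on the scale of the arrays. The 4 members that rose in heart became 18 with median centring, 9 with quantile normalization within each tissue, 9 with quantile normalization over 12 arrays, 26 with upper-quartile scaling, 9 with cyclic loess and 8 with array weights. The 37 that fell became 21 with quantile normalization within each tissue, 22 over 12 arrays, 16 with upper-quartile scaling and 20 with loess. All genes moved likewise: of 18820, 375 rose and 9229 fell in heart with deposited values, 2597 and 7147 with median centring, 2595 and 3354 with quantile normalization within each tissue and 6768 and 2747 with upper-quartile scaling. Median log2 fold change of all genes in heart was -0.10 with median centring and 0.16 with upper-quartile scaling. For the difference between tissues, the 23 higher became 8, 9, 7 and 8 and the 3 lower became 6, 6, 13 and 6 with quantile normalization within each tissue, over 12 arrays, upper-quartile scaling and loess, and the lower were 5 with array weights. Between the Tk2+/+ tissues, the 24 brighter in skeletal muscle became 7 with median centring, 11 with quantile normalization over 12 arrays and 10 with dim genes left out, and the 15 brighter in heart became 29 with median centring. Quantile normalization within each tissue sets the 2 tissues to separate scales and gave 32 and 8 there, against 9693 and 1878 of all genes. Mmp14 in heart had a log2 fold change of 0.00807 with quantile normalization within each tissue, 0.00874 over 12 arrays and 0.00703 with loess, against -0.66 with deposited values.

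The methods' t-test at a 2-fold change called 1 higher and 3 lower in skeletal muscle, 1 higher and 13 lower in heart, and 4 brighter in skeletal muscle and 2 in heart between the Tk2+/+ tissues. After Benjamini-Hochberg adjustment it called 1 higher and 1 lower in skeletal muscle and 9 brighter in Tk2+/+ skeletal muscle. Timp4, Mmp13 and Mmp9 did not pass this adjusted t-test in skeletal muscle (adjusted p = 0.0667, 0.252 and 0.245). Leaving out 1 array at a time gave 5 to 10 higher (5 without Tk2+/+ replicate 3 or without Tk2-/- replicate 2 of skeletal muscle) and 12 to 15 lower in skeletal muscle, 3 to 6 higher and 33 to 38 lower in heart, and 21 to 27 higher and 3 to 5 lower for the difference. Between the Tk2+/+ tissues it gave 13 to 25 brighter in skeletal muscle (13 without Tk2+/+ skeletal muscle replicate 1) and 14 to 18 in heart. With sex, read from Xist, as a covariate, 9 rose and 15 fell in skeletal muscle and 5 rose and 33 fell in heart. The labels give the groups the same replicate numbers, but same-numbered arrays did not deviate together (correlations of -0.24 to 0.21), so the numbers were not taken as pairs. With the replicate number as a block, 10 rose and 15 fell in skeletal muscle, 4 rose and 38 fell in heart, 24 were higher and 3 lower in the difference, and 22 were brighter in skeletal muscle and 15 in heart between the Tk2+/+ tissues.
With 3 arrays a group precision is limited, and the offset of 16 shrinks the changes of dim genes.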
